A study of Mus musculus with 4 samples.

Results

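The PRAME and oogenesin genes are a large family of close copies in the mouse genome, and 10 of them were followed here: *Oog1*, *Oog2*, *Oog3*, *Oog4*, *Pramef8*, *Pramef12*, *Pramef17*, *Gm13103*, *Gm13088* and the pseudogene *Gm13100*. They were picked out by symbol from 55335 annotated genes, and the list was drawn up with their values in these libraries in view. Their differences between the groups are therefore given as a description, and where the fit across all genes calls some of them, that count supports nothing. The libraries were made from oocytes of C57BL/6 mice by Smart-Seq2, a way of amplifying cDNA from the RNA of very few cells. There were 2 control libraries, marked MII_WT in the labels, and 2 mutant libraries, marked MII_Mut, from mice in which the splice site that gives *Ezh2* exon 3 its alternative forms carried a point mutation. The EZH2 protein is the methyltransferase of Polycomb repressive complex 2, and the labels do not say whether the mutant oocytes kept the long or the short form. Whether the libraries stem from different animals is not stated, so a p-value covers no more than the spread among the 4 samples, which may be technical. Genotype and any other difference between the mice behind the groups cannot be told apart.

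PRAME proteins are built from leucine-rich repeats. Human PRAME, first found as a tumour antigen, acts as a substrate receptor of a cullin ubiquitin ligase and has been described as a partner of EZH2 in repressing targets of the retinoic acid receptor. In mice the family has expanded into tandem arrays. Transcripts of the oogenesins (*Oog* genes) accumulate in growing oocytes and persist into the early embryo, while *Pramef12* is known from the male germ line, where it is needed for spermatogenesis.

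Of the 10 genes, 9 lie within 1014 kb of chromosome 4 and *Oog1* lies on chromosome 12 (chr12:87602688-87608850, plus strand, mm10). The coding sequences of the 9 protein-coding genes and the transcript of the pseudogene were aligned in 45 pairs, and their identity ran from 60.5% to 98.6% with a median of 67.1%. The closest pair was *Gm13103* (chr4:143846497-143853637, plus strand) and *Gm13088* (chr4:143653760-143657246, minus strand), named *Pramel27* and *Pramel22* in RefSeq, with 19 mismatched bases among 1380 aligned. An exact run of 343 coding bases was common to both. A stretch of the coding sequence of each is shown because reads from it tell the genes apart only through the 6 bases in capitals, positions 1219 to 1308 of *Gm13103* and 1126 to 1215 of *Gm13088* (GENCODE M21 transcripts).
Gm13103: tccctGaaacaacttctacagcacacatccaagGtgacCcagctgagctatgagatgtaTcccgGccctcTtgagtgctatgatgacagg
Gm13088: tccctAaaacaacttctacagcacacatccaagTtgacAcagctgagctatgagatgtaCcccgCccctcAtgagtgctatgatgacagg

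*Oog1* had a closer copy outside the list. *Gm2042* (chr12:87954080-87960683, plus strand), a protein-coding gene on the same chromosome, matched the coding sequence of *Oog1* at all but 1 of 1488 bases. That base stands in capitals in the following stretch, coding positions 1252 to 1341 of each gene, and a read that does not cover it cannot be assigned to either gene from the coding sequence.
Oog1: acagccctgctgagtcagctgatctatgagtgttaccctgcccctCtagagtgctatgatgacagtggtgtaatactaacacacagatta
Gm2042: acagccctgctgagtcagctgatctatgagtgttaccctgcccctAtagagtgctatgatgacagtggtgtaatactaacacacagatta

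The share of each gene's annotated transcript that occurs unchanged in another gene was counted in words of 50 bases. It was 88.96% for *Oog1*, 73.47% for *Pramef17*, 56.19% for *Gm13100*, 49.94% for *Gm13088*, 43.34% for *Gm13103*, 33.37% for *Oog2* and 19.71% for *Oog3*. *Oog4* shared 0.71% of its words, and *Pramef8* and *Pramef12* shared none. Words of 100 bases gave lower shares in the same order, from 78.03% for *Oog1* to 10.82% for *Oog3*, with none for *Oog4*, *Pramef8* and *Pramef12*. The values of *Oog4*, *Pramef8* and *Pramef12* thus rest almost wholly on sequence of their own, and those of the other 7 genes can depend on how shared reads were divided.

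RefSeq promoter windows (GRCm38.p6) were found for 8 of the 10 genes; *Pramef8* and *Gm13100* had none in the table. The 250 bases before the RefSeq start are shown for the 4 oogenesins and for *Gm13103*, since these 5 upstream sequences resembled one another although 4 of the genes lie on chromosome 4 and *Oog1* on chromosome 12. Capitals mark CAGCTG (an E-box, the kind of site bound by basic helix-loop-helix factors such as FIGLA), TATAAA (the TATA box) and TAATTG (a homeobox core, which reads CAATTA on the strand printed). The windows are chr12:87602415-87602664 (plus strand) for *Oog1*, chr4:144190467-144190716 (plus) for *Oog2*, chr4:144162652-144162901 (minus) for *Oog3*, chr4:143450325-143450574 (minus) for *Oog4* and chr4:143846247-143846496 (plus) for *Gm13103*.
Oog1: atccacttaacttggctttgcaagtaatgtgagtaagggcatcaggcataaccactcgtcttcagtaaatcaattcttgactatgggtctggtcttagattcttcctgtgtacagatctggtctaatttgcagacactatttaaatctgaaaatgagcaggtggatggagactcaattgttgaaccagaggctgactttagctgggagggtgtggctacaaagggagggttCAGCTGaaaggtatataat
Oog2: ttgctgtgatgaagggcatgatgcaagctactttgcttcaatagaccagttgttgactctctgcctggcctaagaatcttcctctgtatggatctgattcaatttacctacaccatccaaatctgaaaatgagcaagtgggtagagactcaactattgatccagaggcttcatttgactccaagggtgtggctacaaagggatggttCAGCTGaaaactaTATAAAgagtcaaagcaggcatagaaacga
Oog3: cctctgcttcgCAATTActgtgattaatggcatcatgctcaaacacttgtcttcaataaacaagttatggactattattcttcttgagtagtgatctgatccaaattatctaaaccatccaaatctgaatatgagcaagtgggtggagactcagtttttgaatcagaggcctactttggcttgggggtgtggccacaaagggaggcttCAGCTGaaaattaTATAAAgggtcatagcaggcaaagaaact
Oog4: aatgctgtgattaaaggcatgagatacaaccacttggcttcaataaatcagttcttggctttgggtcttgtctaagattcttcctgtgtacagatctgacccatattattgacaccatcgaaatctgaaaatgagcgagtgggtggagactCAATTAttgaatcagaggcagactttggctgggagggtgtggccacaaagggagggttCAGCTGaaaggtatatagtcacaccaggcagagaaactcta
Gm13103: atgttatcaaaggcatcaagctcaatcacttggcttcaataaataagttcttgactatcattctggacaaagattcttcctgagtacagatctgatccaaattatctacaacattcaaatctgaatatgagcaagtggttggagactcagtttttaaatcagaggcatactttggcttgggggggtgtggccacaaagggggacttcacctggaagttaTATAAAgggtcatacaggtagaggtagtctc

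Upstream identity was 87.1% between *Gm13103* and *Oog3* over 232 aligned bases, 83.8% between *Oog1* and *Oog4* over 228 bases and 75.2% between *Gm13103* and *Oog2* over 242 bases, the lowest of the 10 pairs among these 5 windows. Both strands were searched for 7 motifs. CAGCTG was in all 4 oogenesin windows, starting at position -19 in *Oog1*, -43 in *Oog2*, -42 in *Oog3* and -41 in *Oog4*, and in none of the other 4 windows; 13.0% of 32851 RefSeq windows of the same length hold it. TATAAA was in *Oog2*, *Oog3* and *Gm13103* at positions -30, -29 and -31 and is in 12.4% of all windows. TAATTG was in *Oog3*, *Oog4* and *Pramef12* (7.2% of all windows), and CCAAT was in *Gm13088* alone (33.8%). The looser E-box CANNTG, which every CAGCTG also matches, was in 7 of 8 windows and in 66.2% of all windows. TAATTA (4.8%) and GGGCGG (32.7%) were in none of the 8. Since these windows resemble one another along their length, the matches are not independent.

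The libraries held between 25090032 and 26617816 matrix counts, 1.06 to 1.076 times the totals of the expected counts that RSEM assigned to the same libraries. CPM below are matrix counts per TMM-scaled library size (edgeR's scaling over the tested genes), not per plain library total, and TPM are the deposited values corrected for transcript length. Of 21 oocyte markers, 19 were above 1 CPM in each library, with summed levels of 33120 to 38690 CPM. Cumulus and granulosa markers (22 genes) summed to 96.2 and 76.8 CPM in controls 1 and 2 and to 499 and 70.02 CPM in mutants 1 and 2. Of them 12, 3, 16 and 8 were above 1 CPM. *Foxl2* and *Amh* were at 0 in both controls and in mutant 2. *Gja1* was at 10.9 and 0 CPM in controls 1 and 2 and at 99.3 and 7.96 CPM in mutants 1 and 2. Leukocyte markers (18 genes) summed to 42.1 and 44.0 CPM in the controls and to 52.5 and 312 CPM in mutants 1 and 2; 3, 3, 4 and 13 of them were above 1 CPM, and *Ptprc* was at 0 in both controls, at 0.107 CPM in mutant 1 and at 43.2 CPM in mutant 2. The part of these cell types in the values that follow was not tested. *Ezh2* itself was read at 313 and 239 CPM in the controls against 176 and 223 CPM in the mutants, which does not check the genotype.

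The 10 genes covered a wide range of levels. In TPM, which allows genes to be compared, *Oog3* was the highest in each library, at 1988 and 2107 in controls 1 and 2 and 3173 and 4020 in mutants 1 and 2, followed by *Oog1* at 1168 and 1119 in controls and 2024 and 2012 in mutants. *Gm13103* came next in controls, at 786 and 715 TPM, but below *Pramef12* in mutants, at 14.8 and 11.6 TPM. In controls the order went on with *Oog4*, *Oog2*, *Pramef12*, *Pramef8*, *Pramef17*, *Gm13100* and *Gm13088*, and no neighbours in it overlapped, although each rests on 2 libraries. In mutants *Pramef8* (1.57 and 0.720 TPM) and *Gm13100* (0.260 and 0.820 TPM) overlapped, and *Pramef17* was at 0.

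**Figure D1:**
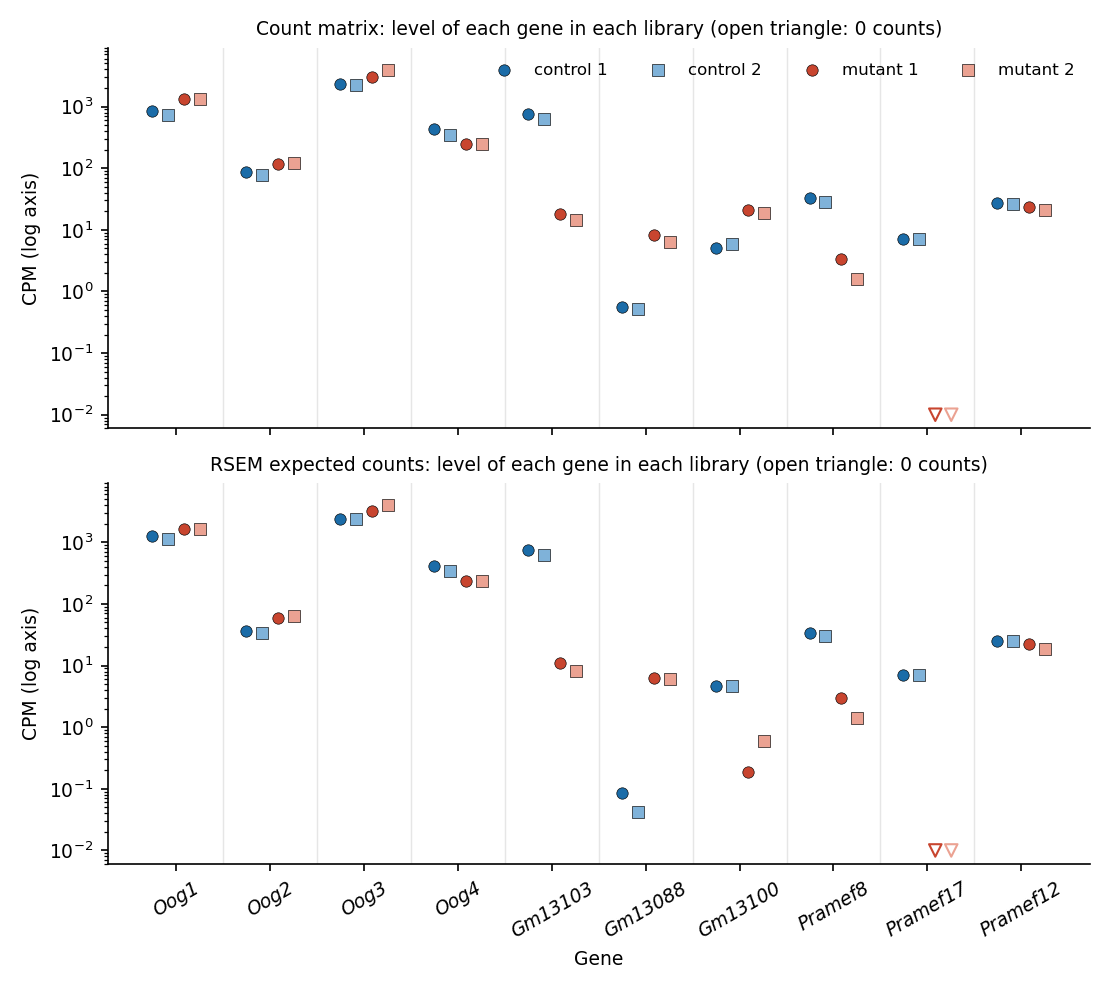
Level of each of the 10 genes in each library, in CPM on a log axis, from the count matrix (top) and from the RSEM expected counts (bottom); circles are replicate 1, squares replicate 2, blue controls and red mutants. *Gm13103*, *Pramef8* and *Pramef17* stand far lower in both mutants in both panels, and *Gm13100* stands higher in mutants in the top panel and lower in the bottom one.

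Of the oogenesins, *Oog3*, *Oog1* and *Oog2* were higher in both mutants and *Oog4* was lower. *Oog3* (chr4:144157557-144162663, minus strand), had 56928 and 56353 matrix counts in controls 1 and 2 and 86451 and 104937 in mutants 1 and 2. Both mutants were above both controls, with means of 2264 ± 39.7 CPM in the controls against 3506 ± 617 CPM in the mutants (SD, n = 2 each), a log2 fold change of 0.63 (SE 0.19). In bulk RNA, a different number of cells of a type and a different amount of RNA per cell cannot be told apart. RSEM assigned it 97.1% to 98.6% of its matrix count in each library, and the log2 fold change was 0.62 with those counts, so the way of counting hardly touched it.

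*Oog1*, the founding oogenesin, had 20721 and 18086 matrix counts in controls and 36811 and 34750 in mutants. Its mean level was 776 ± 82.5 CPM in the controls against 1306 ± 1.31 CPM in the mutants, 1.683-fold higher in mutants, with no overlap. RSEM gave it more reads than the matrix in every library, 142% and 150% of the matrix count in controls and 117% and 116% in mutants, and the log2 fold change went from 0.75 (SE 0.16) to 0.44. Its near-copy *Gm2042* went the other way: 1445 and 1306 CPM in the controls against 580 and 603 CPM in the mutants, a log2 fold change of -1.22 that passed the threshold (edgeR quasi-likelihood test, adjusted p = 0.0149 over all genes, and 0.0166 with RSEM counts).

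When *Oog1* and *Gm2042* were summed, the pair had 56601 and 50983 matrix counts in controls against 53141 and 50811 in mutants. The sum was 2279 and 2023 CPM in the controls against 1887 and 1909 CPM in the mutants, 0.8822 of the control level, so the difference of *Oog1* alone was not in the sum of the pair. Adding *Gm10436*, *C87977* and *Gm13023*, the other family genes with at least 5% of the words of *Oog1*, gave 6930 and 6131 CPM in the controls against 5496 and 5440 CPM in the mutants. In that sum, too, both mutants were below both controls, while *Oog1* was above. *Gm10436* (*Pramel51*), with 99.3% coding identity to *Oog1*, fell from 2028 and 1714 CPM to 958 and 970 CPM (log2 fold change -0.96, SE 0.16, edgeR adjusted p = 0.0358). *C87977* (*Pramel29*), with 96.2% identity, rose from 392 and 343 CPM to 1119 and 1041 CPM (log2 fold change 1.56, SE 0.16, edgeR adjusted p = 0.0069). The calls of *Gm2042*, *Gm10436* and *C87977* were lost without control 1 and without control 2 (edgeR adjusted p from 0.166 to 0.301).

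**Figure D2:**
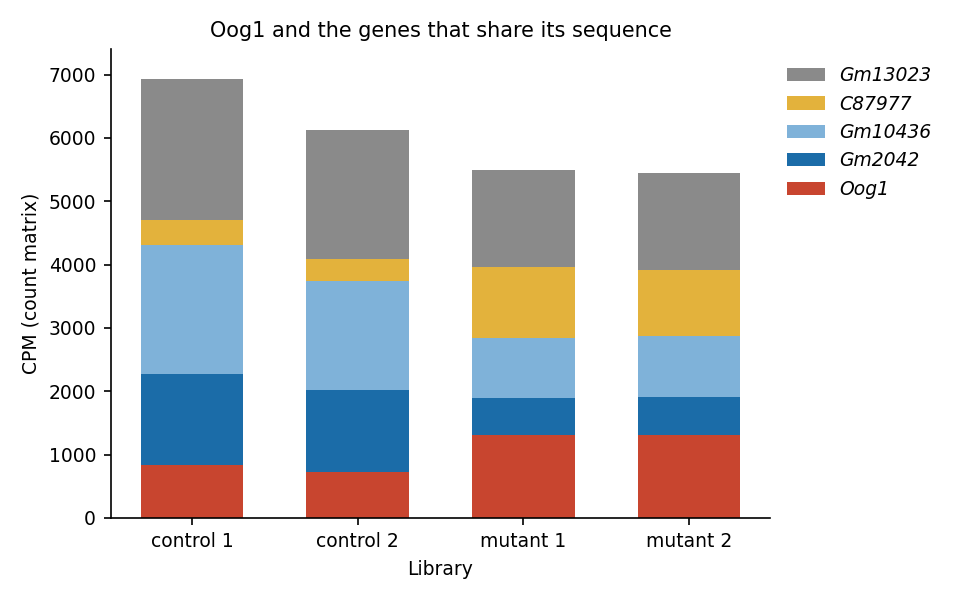
Matrix CPM of *Oog1* and of the 4 genes that hold at least 5% of its 50-base words, stacked for each library. The red *Oog1* and the yellow *C87977* segments are taller in mutants, those of *Gm2042* and *Gm10436* are shorter, and the full bars are 6930 and 6131 CPM in the controls against 5496 and 5440 CPM in the mutants.

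*Oog2* (chr4:144190719-144196934, plus strand) had 2161 and 1983 matrix counts in controls and 3332 and 3243 in mutants. It was higher in both mutants, at 118 and 122 CPM against 87.0 and 78.7 CPM in controls (log2 fold change 0.54, SE 0.14). RSEM assigned it 39.5% and 40.0% of its matrix count in controls and 46.5% and 49.8% in mutants, and its log2 fold change with RSEM counts was 0.82. The sum with *Gm13084* and *Gm7201*, which hold part of its sequence, overlapped between the groups in matrix CPM: controls were at 453 and 480 CPM, mutants at 454 and 410 CPM. With RSEM counts it overlapped too, at 354 and 390 CPM in controls and 408 and 365 CPM in mutants. In TPM it did not overlap, at 571 and 675 in controls against 785 and 717 in mutants, 1.205-fold higher in mutants.

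*Oog4* (chr4:143437164-143450324, minus strand) was the oogenesin that went the other way. It had 10593 and 8779 matrix counts in controls and 7056 and 6671 in mutants, and 427 and 348 CPM in controls against 251 CPM in each mutant. The log2 fold change was -0.63 (SE 0.16), and -0.71 with RSEM counts. It shares 0.71% of its words with other genes, the least of the oogenesins. The 4 oogenesins together were at 3641 and 3381 CPM in the controls against 4746 and 5620 CPM in the mutants, 1.476-fold higher in mutants.

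The other 6 genes together were at 840 and 696 CPM in the controls against 74.2 and 61.8 CPM in the mutants, a log2 ratio of -3.50, and *Gm13103* made up most of that sum in controls. *Gm13103*, a protein-coding PRAME-like gene, had 19042 and 15815 matrix counts in controls and 501 and 384 in mutants. The means were 697 ± 98.4 CPM in the controls against 16.1 ± 2.38 CPM in the mutants, 43.28-fold lower in mutants (log2 fold change -5.44, SE 0.21). With RSEM counts it was 72.62-fold lower and in TPM 56.84-fold lower. Each way of counting placed both mutants far below both controls.

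Its near-identical copy *Gm13088* was rare in controls and higher in mutants. It had 14 and 13 matrix counts in controls and 232 and 166 in mutants, that is 0.564 and 0.516 CPM against 8.24 and 6.24 CPM, 13.41-fold higher. RSEM left it 3 counts over both controls and 317 over both mutants, a ratio of 97.0 once scaled to the library sizes (95% counting interval 32.9 to 473). That interval covers counting error alone and not how shared reads were divided, and the 13.41-fold of the matrix lies outside it. The summed pair of *Gm13103* and *Gm13088* was 767 and 628 CPM in the controls against 26.03 and 20.7 CPM in the mutants, so the level of *Gm13088* in mutants was small beside the difference of *Gm13103*.

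*Gm13100*, annotated as an unprocessed pseudogene (chr4:143913857-143916442, plus strand), changed direction with the way of counting. In the matrix it had 124 and 149 counts in controls and 587 and 504 in mutants, with a log2 fold change of 1.87 (SE 0.26). RSEM assigned it 107 and 110 counts in controls but 5 and 15 in mutants, with a log2 fold change of -3.53. That is 86.3% and 73.8% of the matrix count in controls, and 0.852% and 2.98% in mutants. Summed with *Gm13058*, a pseudogene that holds 55.47% of its words, it was still higher in mutants in the matrix (log2 ratio 1.29) and lower with RSEM counts (-3.71). The groups did not overlap in either count, and the direction of *Gm13100* cannot be given.

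*Pramef8* (chr4:143412426-143421091, plus strand), whose transcript shares no 50-base word with another gene, had 828 and 710 matrix counts in controls and 96 and 42 in mutants. It was at 30.8 ± 3.65 CPM in the controls against 2.49 ± 1.30 CPM in the mutants, 12.34-fold lower in mutants. Its log2 fold change was -3.62 (SE 0.41), and -3.85 with RSEM counts.

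*Pramef17* (chr4:143991119-143994369, minus strand) had 176 and 182 matrix counts in controls and 0 in both mutants, in the matrix and in the RSEM tables alike. Against a floor of 3 counts over the mutant group, 0.0548 CPM, it was at least 131-fold lower in mutants. *Gm13128* holds all of its shared words and an exact run of 483 coding bases of it. That gene was at 0.161 and 0.397 CPM in the controls against 0.923 and 0.526 CPM in the mutants. *Pramef17* and *Gm13128* summed to 7.25 and 7.62 CPM in the controls against 0.923 and 0.526 CPM in the mutants, again with no overlap.

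*Pramef12* (chr4:144391674-144408464, minus strand), the spermatogenesis gene, had the smallest log2 fold change of the 10 in size. It had 685 and 664 matrix counts in controls and 673 and 550 in mutants, that is 27.6 and 26.4 CPM against 23.9 and 20.7 CPM (log2 fold change -0.28, SE 0.20). An antisense gene, *Pramef12os*, overlaps it and had 0 counts in each library.

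**Figure D3:**
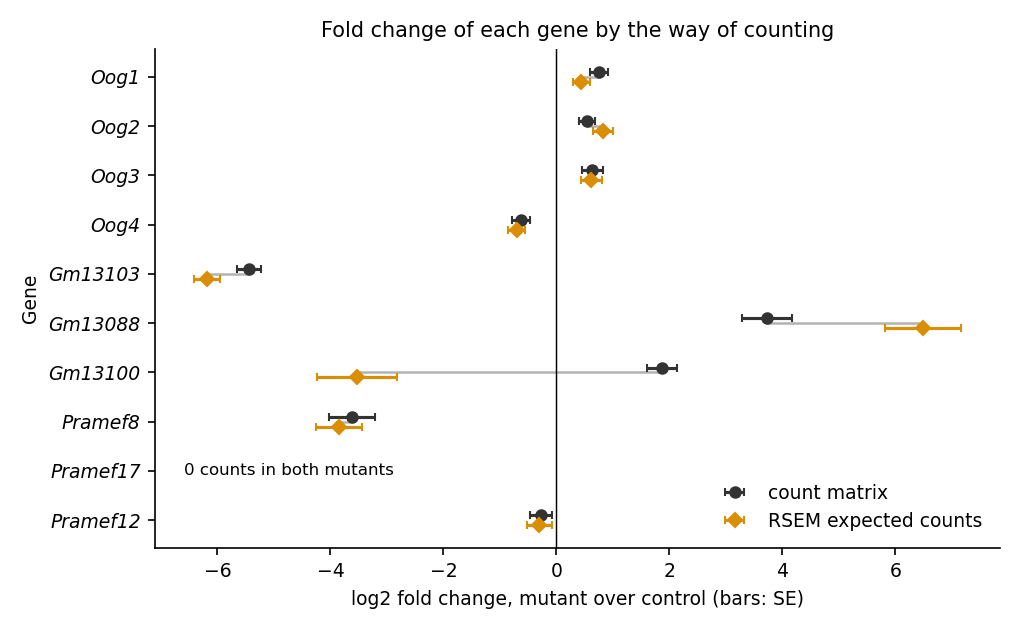
Log2 fold change of each gene, mutant over control, from the count matrix (dark circles) and from the RSEM expected counts (orange diamonds), with SE bars; *Pramef17*, at 0 in both mutants, has no point, and the RSEM value of *Gm13088* is a fitted one that rests on 3 counts in controls. *Gm13100* lies on opposite sides of 0, and the other 8 plotted genes lie on the same side with both counts.

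All 10 genes passed the filter on low counts in both tables, *Pramef17* only through its control libraries. With RSEM counts *Gm13088* passed only through its mutant libraries, and *Gm13100* had 2 controls but only 1 mutant over the minimum. In the fit across all genes, 5 of the 10 passed an adjusted p of 0.05 with matrix counts (edgeR quasi-likelihood test), *Gm13088* and *Gm13100* in the direction of higher levels in mutants and *Pramef8*, *Pramef17* and *Gm13103* in that of lower levels. Over all 15493 genes tested 3.75% passed, 1.77% higher and 1.98% lower; the list was drawn up with these values in view, so nothing is read from the count. Without control 1, or without control 2, only *Gm13103* passed. With RSEM counts 5 passed, 1 higher and 4 lower, beside 3.89% of 13182 genes, 1.69% higher and 2.2% lower. The groups did not overlap for any of the 10 genes, 5 higher and 5 lower in mutants in the matrix, where 54.6% of all genes tested did not overlap either (28.8% higher, 25.7% lower). With RSEM counts 4 were higher and 6 lower, beside 54.8% of all genes tested (29.1% higher, 25.7% lower). The median log2 fold change of the 10 was 0.13 with matrix counts and -0.50 with RSEM counts, beside 0.05 and 0.06 over all genes tested.

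The sum over all 10 genes does not depend on how reads were divided among them, though it can depend on reads shared with genes outside the list. It was 4481 and 4077 CPM in controls 1 and 2, below the 4820 and 5681 CPM in mutants 1 and 2, with means of 4279 ± 286 and 5251 ± 609 CPM (SD, n = 2 each), 1.227-fold higher in mutants. With RSEM counts the ratio was 1.179 and in TPM 1.365. The 10 genes took 0.418% and 0.409% of all matrix counts in controls and 0.511% and 0.569% in mutants. Behind the modest difference of the sum, its make-up differed: *Oog3* held 51.2% and 54.9% of the members' counts in controls and 63.7% and 69.4% in mutants, while *Gm13103* held 17.1% and 15.4% in controls and 0.369% and 0.254% in mutants. In CPM the direction of the sum rests on *Oog3*. Without it the log2 ratio was -0.21 in CPM, against 0.30 with it, and 0.044 in TPM.

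**Figure D4:**
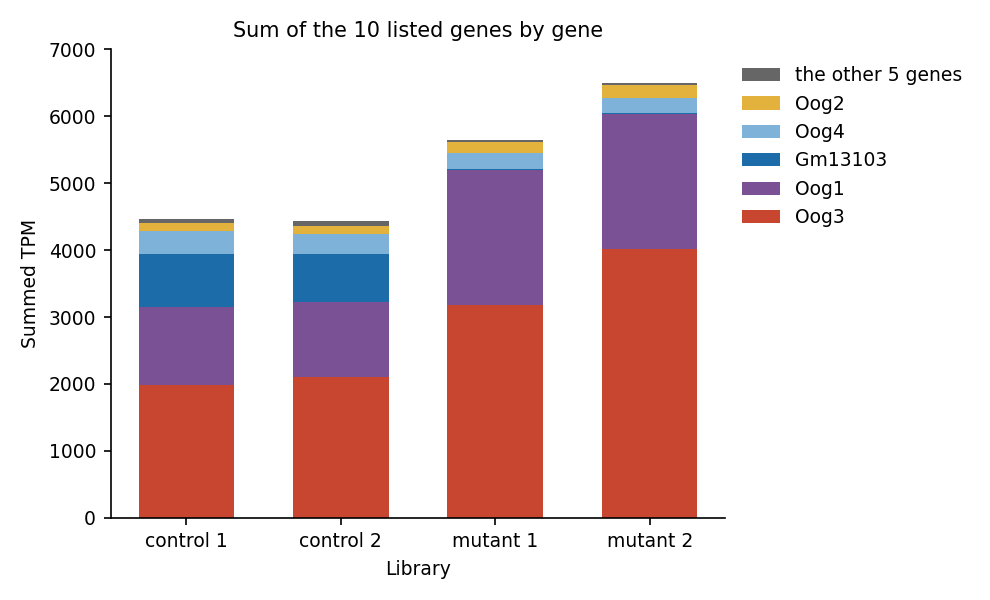
Summed TPM of the 10 genes in each library, stacked by gene, with the 5 least abundant genes in 1 grey segment. The bars reach 4468 and 4430 in controls 1 and 2 and 5647 and 6496 in mutants 1 and 2; the segments of *Oog3* and *Oog1* are taller in mutants and that of *Gm13103* is too thin to see there.

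Most family genes have other symbols in the files, so the wider family was also listed by current RefSeq symbol: 53 RefSeq genes, of which 52 matched and 43 were outside the list of 10. Of these, 18 could be tested, 7 with a positive and 11 with a negative log2 fold change, and the median was -0.35, beside 8253 positive, 7240 negative and a median of 0.05 over all 15493 genes tested. *C87977* passed as higher and *Gm10436* as lower in mutants, while 3.75% of all genes tested passed. Without control 1 or without control 2 none passed. The 43 genes summed to 7036 and 6448 CPM in the controls against 5246 and 5494 CPM in the mutants, so their sum was lower in both mutants, whereas that of the 10 listed genes was higher. Members and wider family together were at 11517 and 10525 CPM in the controls against 10066 and 11175 CPM in the mutants, and these ranges overlapped. The log2 ratio of that sum was -0.053, and it turned to 0.052 in TPM, 0.013 without control 1 and 0.02 without mutant 1. It leaves out *Gm2042* and the other copies that no family symbol marks. Of these, *Gm2042*, *Gm13058*, *Gm4350* and *Gm7201*, which share sequence with listed genes, were added. The resulting 57 genes summed to 12966 and 11834 CPM in the controls against 10652 and 11786 CPM in the mutants, with no overlap. The log2 ratio was -0.144 in CPM, -0.201 with RSEM counts and -0.055 in TPM. Unmarked copies of wider family genes are still left out of the 57, among them *Gm6367*, which holds 48.48% of the words of *C87414*. The sum of the 57 is therefore not a total over all copies, and the direction of such a total was not tested.

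Among the abundant genes of the wider family, *Gm13023* (*Pramel25*) was at 2231 and 2052 CPM in the controls against 1532 and 1521 CPM in the mutants (log2 fold change -0.49, edgeR adjusted p = 0.126). *C87414* (*Pramel34*) had a log2 fold change of -0.40 (edgeR adjusted p = 0.257), *Gm13084* (*Pramel26*) of -0.30 (0.293) and *C87499* (*Pramel32*) of -0.28 (0.325). None of these 4 passed in edgeR. With DESeq2 *Gm13023* passed (log2 fold change -0.506, adjusted p = 0.00962), while *C87414*, *Gm13084* and *C87499* did not. By the symbols in the files alone, 11 genes were outside the list, the antisense gene *Pramef12os* among them. Of these 2 could be tested, and neither passed. One of them, *Pramef6*, had 3 and 7 matrix counts in controls and 39 and 35 in mutants (log2 fold change 2.73, edgeR adjusted p = 0.095), and with RSEM counts, 2 and 3 against 104 and 84.3, it passed (log2 fold change 5.04, edgeR adjusted p = 0.017).

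The chromosome 4 array holds 25 annotated family genes between *Pramel1* and *Pramef12* (chr4:143394428-144408464). Of its genes 20 could be tested, 18 of them family genes, and 10 had a positive and 10 a negative log2 fold change. Genes with opposite differences were interleaved along it: *Gm13088*, 259.3 kb from its first gene, was higher in mutants and *Gm13103*, at 452.1 kb, lower, and *Oog3*, *Oog2* and *C87977*, next to one another, were all higher. Past the threshold were 3 as higher (*Gm13088*, *Gm13100*, *C87977*) and 3 as lower (*Pramef8*, *Gm13103*, *Pramef17*), of which 5 are on the list itself and were chosen with these values in view. Over all 15493 genes tested 3.75% passed, and 8253 had a positive and 7240 a negative log2 fold change. These array counts use the matrix, where *Gm13100* is higher; with RSEM counts it was lower (log2 fold change -3.53), so its place among the higher genes is in doubt.

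**Figure D5:**
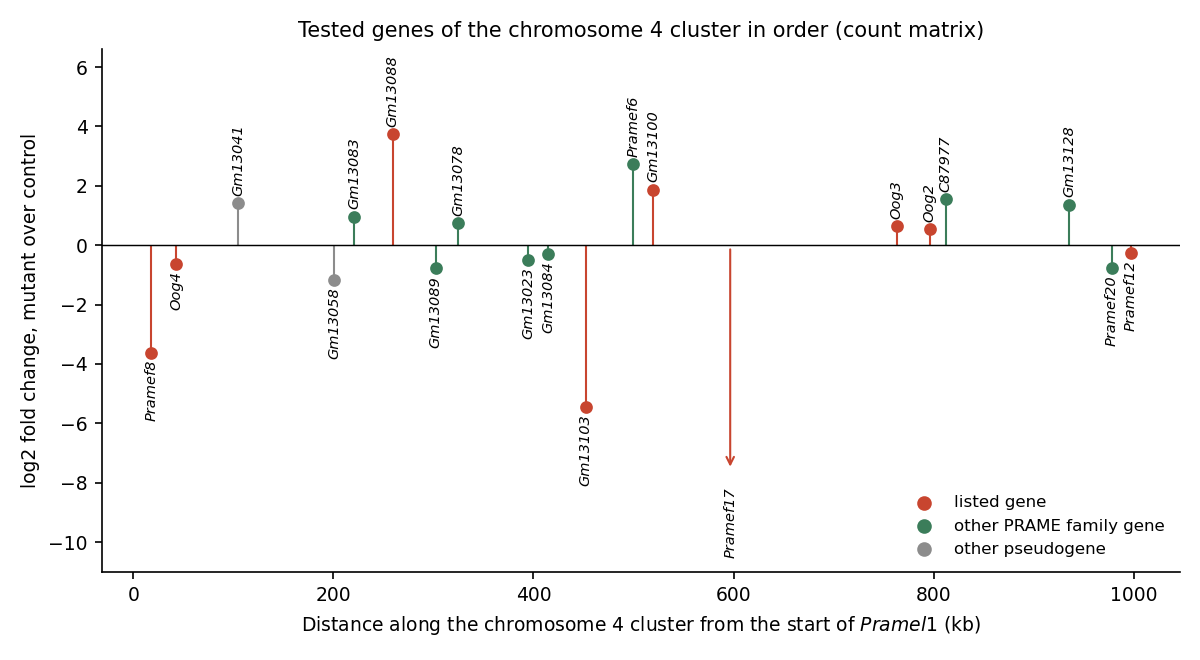
Log2 fold change (mutant over control, count matrix) of the 20 tested genes of the chromosome 4 array by distance in kb from its first gene, listed genes in red, other family genes in green and other pseudogenes in grey. *Pramef17*, at 0 in both mutants, is drawn as an arrow with no value; genes above and below 0 stand among one another along the array.

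The 5 genes outside the family with the pattern most like that of the family sum over the 4 libraries were *Mpdz*, *Secisbp2*, *Dennd4c*, *Btbd7* and *Piga*. Likeness was the distance between centred log2 CPM, which ran from 0.0151 for *Mpdz* to 0.0341 for *Piga* among 6515 genes of at least 10 CPM.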

How the data were processed

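RNA of 4 oocyte libraries, 2 control and 2 mutant by their titles, was compared. The files deposited were 1 matrix of counts for the series and, per library, tables with RSEM expected counts, TPM and FPKM, per the file headers. FPKM was not used. Gene lengths were deposited by the authors in the same tables. The submitters' processing notes name cutadapt 1.16, STAR, RSEM and the mm10 build; their roles, the counter behind the matrix and whether strand was used are not given in the sources used. Of 55335 gene IDs, 55154 matched GENCODE M21.

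The quasi-likelihood test of edgeR 4.0.16 (R 4.3.3) was run on the matrix counts after TMM scaling and filterByExpr, by genotype alone, with Benjamini-Hochberg adjustment over all 15493 tested genes and a threshold of 0.05. There were 2 residual degrees of freedom and the common biological coefficient of variation was 0.353. An SE is the size of the log2 fold change divided by the square root of F. RSEM expected counts were rounded and fitted alike. Floors (3 counts over a group) and intervals cover counting error only. Alignments used Biopython 1.88. The members and all lists were chosen with earlier results of these data known.

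The named genes were the members, family genes outside the list past the threshold or with the highest mean CPM, and the 5 genes with the pattern nearest to the family sum; genes sharing at least 5% of a member's 50-base words, *Pramef6* and the neighbours of the chromosome 4 array were added after their values were seen, as was the RefSeq list. A planned search for relatives by protein alignment was not run, so the wider family rests on symbols. Alternatives were other count tables, scalings, filters and tests (limma 3.58.1, DESeq2 1.42.0), a replicate block and each library left out. Replicate numbers were not taken to pair libraries.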

Additional observations from a re-analysis of the deposited data

How the results depend on the processing

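The count of genes past the threshold, 581, was 1935 with DESeq2, 1322 with no filter on low counts and 1213 with the replicate block, and from 22 (without control 1) to 1688 (without mutant 1) when 1 library was left out; with 1 library in a group, the lone library is assumed to vary like the other group. Of the 10 members 5 passed; 9 did with DESeq2, 5 with the replicate block, and from 1 to 7 with 1 library left out. The cause of these differences was not tested. Same-numbered libraries had a correlation of 0.166 between their deviations from the group means over 15493 genes. With 2 libraries per group both same-numbered pairs give this value, and crossed numbers give -0.166 by construction. That makes only 1 comparison, so the block is given as an alternative alone. Of the family genes outside the list, by symbol in the files, 0 passed in edgeR (0 with DESeq2 and limma) and 1 with RSEM counts. Of those on the RefSeq list 2 passed, 5 with DESeq2, and from 0 to 3 with 1 library left out. For single members, each of 10 genes kept its direction under all alternatives tried, except *Gm13100*, whose log2 fold change was -3.531 with RSEM counts. The planned second setting of the protein alignment was not run. The log2 ratio of the members' sum, 0.295, was 0.449 in TPM, -0.207 without *Oog3*, -1.859 without *Oog1*, *Oog2* and *Oog3*, and -4.287 for *Gm13103* and *Gm13100* alone; it ran from 0.172 to 0.409 with 1 library left out. With the wider family by file symbol it was 0.291, and 0.445 in TPM, and from 0.166 to 0.405 with 1 library left out. With the RefSeq list it was -0.053, and turned to 0.052 in TPM and to 0.038 with library totals as the only scaling; leaving out 1 library gave -0.131 to 0.02, above 0 without control 1 (0.013) and without mutant 1 (0.02). The RefSeq list and the sums over chosen members were alternatives chosen after seeing the data.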

Other observations

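*Gm4350*, a processed pseudogene on chromosome 14 (chr14:86320285-86320863, plus strand) whose 579-base transcript is 98.8% identical to *Oog3*, had 10 and 4 matrix counts in controls and 126 and 144 in mutants (log2 fold change 4.12, edgeR adjusted p = 0.0251; 0.203 without control 1 and 0.259 without control 2). Beside the 86451 and 104937 counts of *Oog3* in mutants these are few, and the sum of both genes was 1.55-fold higher in mutants, against 1.549-fold for *Oog3* alone. *Prdm2*, a histone methyltransferase gene that flanks the chromosome 4 array (chr4:143107391-143212995, minus strand), rose from 27.2 and 36.3 CPM in controls to 71.3 and 75.8 CPM in mutants (log2 fold change 1.21, SE 0.20, edgeR adjusted p = 0.0319), and it missed the threshold with RSEM counts (edgeR adjusted p = 0.0526), without control 1 (0.268) and without control 2 (0.191). *Dhrs3*, a retinal reductase gene on the other side, was at 1.57 and 1.03 CPM in controls and 6.96 and 4.66 CPM in mutants. Its log2 fold change was 2.16 (edgeR adjusted p = 0.0602), which did not pass. It passed under 5 of 12 alternatives, among them the replicate block (edgeR adjusted p = 0.0231), no filter (edgeR, 0.0343) and DESeq2 (adjusted p = 0.00595). It did not pass with, among others, RSEM counts (edgeR adjusted p = 0.054) and limma (adjusted p = 0.052). Over 12 alternatives its log2 fold change ran from 1.816 to 2.478. Other flanking genes did not pass: *Pdpn* (log2 fold change 0.97, edgeR adjusted p = 0.143), *Kazn* (-0.21, 0.767), *Vps13d* (0.18, 0.64) and *Tnfrsf1b* (8.39, 0.0692). *Tnfrsf1b* had 0 counts in controls and 13 and 73 in mutants.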
